A study of Mus musculus with 28 samples.

Results

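Müller glial cells (MGCs) picked one by one, by their shape after papain dissociation, from rd1 retinas at 5 weeks of age were set against MGCs from adult wild-type (WT) retinas. The rd1 mice are FVB animals with a mutation in the gene for the β-subunit of the rod cGMP phosphodiesterase. The WT mice are C57/BL6 animals older than 25 weeks by the sample labels, although a figure legend of the study gives a younger minimum age for them. The members were the 5 arrays titled as rd1 at 5 weeks (A1, A5, B1, A8 and A6) and the 5 arrays titled as WT (MG1, MG16, MG22, MG15 and MG3), which makes 10 of the 28 arrays of the series. The other arrays hold MGCs from rhodopsin knockout (Rhod-ko) mice on C57/BL6 at 8 and 25 weeks, and from rd1 mice and congenic FVB mice without the mutation at postnatal day 13 (P13). The strain, the age, the state of the retina and the set of arrays all differ between the rd1 and the WT cells, since the WT profiles came from earlier work of the same group, and their contributions cannot be told apart.

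MGCs are the radial glia of the retina. They span its whole depth, wrap the photoreceptors, take up glutamate and GABA, recycle visual pigment chromophore and buffer water and potassium. When photoreceptors die they enter gliosis, a reactive state marked by the filament protein encoded by Gfap. In rd1 mice the rods are lost first and the cones follow.

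The values are Affymetrix MAS 5.0 signals of amplified cDNA, 1 cell to an array, and for every gene the highest of its probe sets in that cell was used. Arrays A5 and A6 correlated at r = 0.99 across genes, against 0.30 to 0.77 for every other pair of the 28 arrays, and were averaged as 1 cell, which leaves 4 rd1 cells. A gene counted as on where its signal reached 2000. The medians of the 4 rd1 and 5 WT cells were compared on the log2 scale after values under 1000 had been raised to 1000, the floor, and a difference of at least 1 (2-fold) was called higher or lower in rd1. Where one median lies at the floor the difference is a lower bound, written as "at least". A median of 4 rd1 cells averages the middle values, so a raised value can also enter a median above the floor. This was so for Fbxo2, Sdcbp, Smo, Slc1a2 and Mt3, among others. Such differences are lower bounds too but are printed without "at least". The labels do not tie cells to animals, so the cells of a condition amount to 1 sample and no test between them was run. The spread is given by the cells themselves, as 4 rd1 and 5 WT values per gene. A gene on in 4 of 4 rd1 cells has an exact 95% binomial interval that starts at 39.8% of cells. A gene on in 0 of 5 WT cells has one of 0% to 52.2%. These intervals treat cells as independent draws and cover counting error only. They describe each condition by itself and do not compare the conditions.

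All 10 arrays had been scaled to one trimmed mean. The number of genes on was 3208 in rd1 A1, 2485 in A5/A6, 1858 in B1 and 2186 in A8, and between 1847 and 2603 in the WT cells. Pairwise r across genes was 0.45 to 0.53 among the rd1 cells, 0.33 to 0.46 among the WT cells and 0.34 to 0.50 between them.

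The rd1 cells carried the markers of MGCs. Of 19 MGC markers, 18 were on in A1, A5/A6 and A8 and 17 in B1, and 13 to 18 were on in the WT cells. Glul, the glutamine synthetase of glia, read 21860.3, 69373, 124822 and 119808 in A1, A5/A6, B1 and A8, and 221719.6, 64815, 70366, 89714 and 280781 in MG1, MG16, MG22, MG15 and MG3. The filament gene Vim read 17627, 50423, 107826 and 61671 in rd1 and 29269.7 to 111666 in WT, a difference of 0.06. The marker that was not on in any rd1 cell was Hes1, and in B1 Sox9 was also off (signal 39.2). None of 16 microglia and macrophage markers was on in an rd1 cell, with a summed signal of 954 to 1589.5 over the list against 1527 to 11592 in WT.

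**Figure D1:**
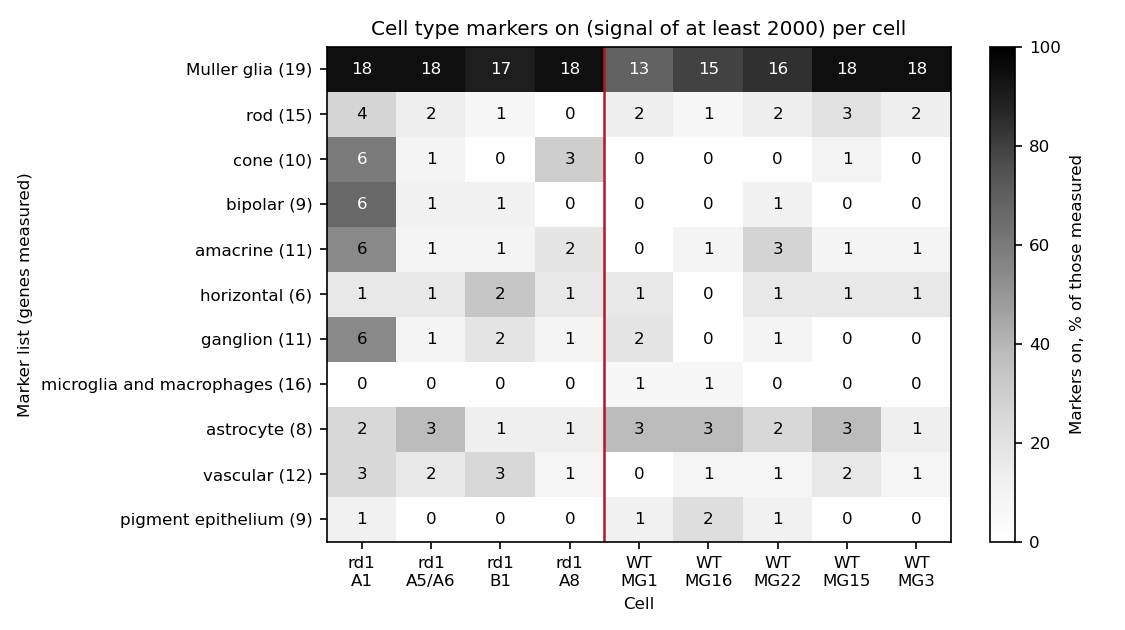
Number of markers on (signal of at least 2000) for 11 cell type lists in the 4 rd1 cells at 5 weeks and the 5 adult WT cells, with the genes measured per list in brackets and shading for the percentage on. MGC markers were on in 17 or 18 of 19 cases in the rd1 cells, and A1 stood apart by its neuronal markers.

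Cell A1 also held transcripts of neurons. On in it were 6 of 10 markers of cones, 6 of 9 of bipolar cells, 6 of 11 of amacrine cells and 6 of 11 of ganglion cells, among them the cone arrestin gene Arr3 at 7795, the bipolar cell gene Pcp2 at 19393 and the neurofilament gene Nefm at 3070.4. The summed signal of the bipolar list was 56736 in A1 and 2350.2 to 28148 in the other 3 rd1 cells, against 994 to 12552 in WT. In A8, 3 of 10 cone markers were on, Gnat2 at 28753, Pde6h at 24398 and Pde6c at 6055. The other cone markers were off in this cell, among them Arr3 at 198 and Opn1mw at 160.3. Of 15 rod markers 0 were on in A8, where Sag and Rom1 read 7.30 and 140.1. Pde6h was on in 3 of 4 rd1 cells and in 0 of 5 WT cells (at most 689). The part of such transcripts in the differences below was not tested.

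The WT cells were not uniform, and this shaped many of the differences. MG1, MG16 and MG22 lacked signal for genes that were strong in MG15, MG3 and all rd1 cells. The retinaldehyde-binding protein gene Rlbp1, which serves chromophore recycling in MGCs, read 22.2, 24.5 and 147 in MG1, MG16 and MG22 but 109338 in MG15 and 149346 in MG3, and 27908, 76514, 137346 and 84464 in the rd1 cells. The difference of medians was at least 6.33, and without MG1, MG16 and MG22 it was -0.67. The thyroid hormone-binding protein gene Crym (at least 4.98, then -0.51), the tubulin gene Tuba1a (at least 5.73, then -0.24) and the actin gene Actg1 (at least 5.16, then -0.23) behaved likewise. Such genes were also among those used by most cells: of 179 genes on in all 18 cells of the other conditions, 43 to 50 were under 1000 in MG1, MG16 and MG22, 18 and 29 in MG15 and MG3, and 3 to 24 in the rd1 cells. The ratio of the 3′ to the 5′ control probe set for Gapdh was 0.554 to 0.787 in MG1, MG16 and MG22, 1.47 and 4.06 in MG15 and MG3, and 1.52 to 2.22 in the rd1 arrays, and its part in the differences was not tested. The values of single cells are therefore given for the main genes below, and counts of lists are repeated without MG1, MG16 and MG22, a choice made after seeing the data.

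**Figure D2:**
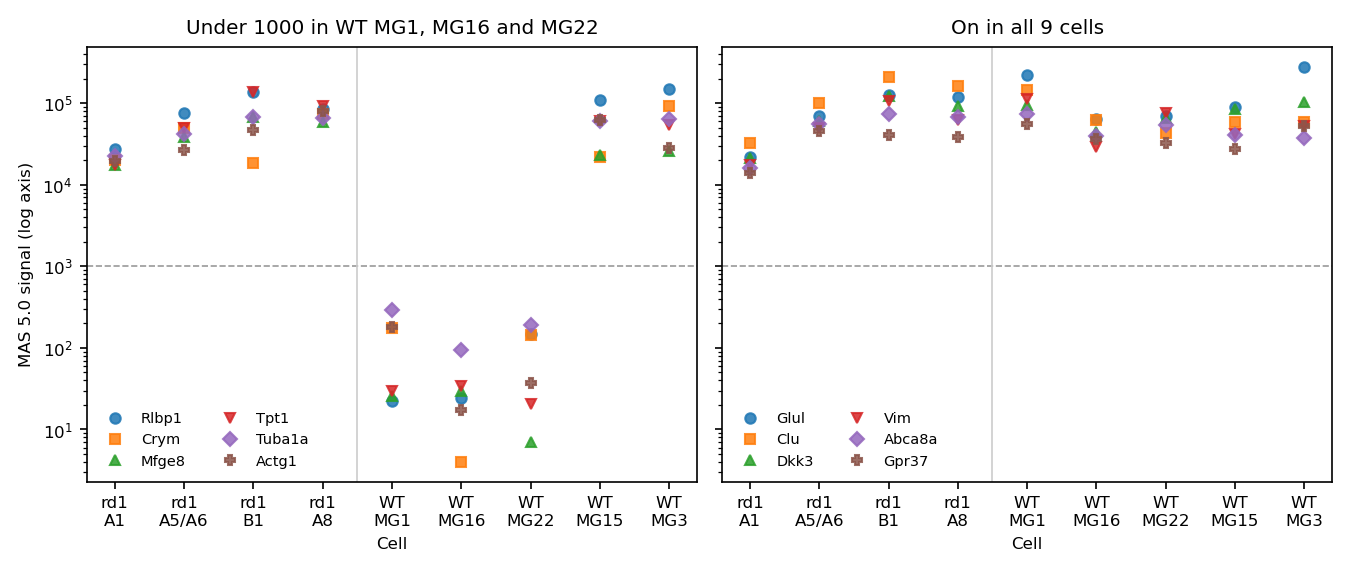
Signal on a log axis in each rd1 and WT cell for 6 genes under the floor in WT MG1, MG16 and MG22 (left) and 6 MGC genes on in all 9 cells (right), with the floor of 1000 dashed. On the left MG15 and MG3 lie with the rd1 cells, whereas on the right the rd1 and WT cells share one range.

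Of 18194 genes, 1156 (6.35%) met the 2-fold rule upwards in the rd1 cells and 774 (4.25%) downwards. Most genes were under the floor in both groups. Among the 4061 genes with a median above it, the shares were 28.5% higher and 19.1% lower, and these are the shares against which a list of expressed genes is read here. The median difference over the same 4061 genes was 0.40. Of the 1156 higher genes, 292 were on in no WT cell and 377 in 2 of them. Without MG1, MG16 and MG22 the counts were 945 higher, 800 of them shared with the first count, and 1600 lower, 430 of them shared. The shares of 28.5% and 19.1% therefore do not apply to list counts repeated without these cells. No such share was computed for that choice, under which lower genes were more frequent in general. Without rd1 A1, the cell with neuronal transcripts, they were 1098 higher, 893 of them shared, and 790 lower, 713 of them shared. Just inside the 2-fold rule lay Chfr at 1.0003 and Zbtb4 at -1.0014, and just outside Psmb5 at 0.9999 and Ptpn18 at -0.9983.

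A stricter description asks that every cell of one condition lie above every cell of the other. It held for 56 genes that were higher in rd1 (0.308% of all genes) and 20 that were lower (0.110%). In 22 of the 56 and 6 of the 20 the nearest cells of the 2 conditions were at least 2-fold apart. On in all 4 rd1 cells and under 1000 in all 5 WT cells were 13 genes (0.0715%), among them Prodh, Kdelr1, Slc6a11, the translation factor gene Eif4g3 (4099 to 21039 against at most 671) and Scap, the sterol sensor partner of SREBP (3162 to 19470.4 against at most 382). The reverse held for 4 genes (0.0220%), Evi5, Olfm4, Pax6os1 and Rorb. The plot of genes without overlap gives the 15 largest in each direction.

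**Figure D3:**
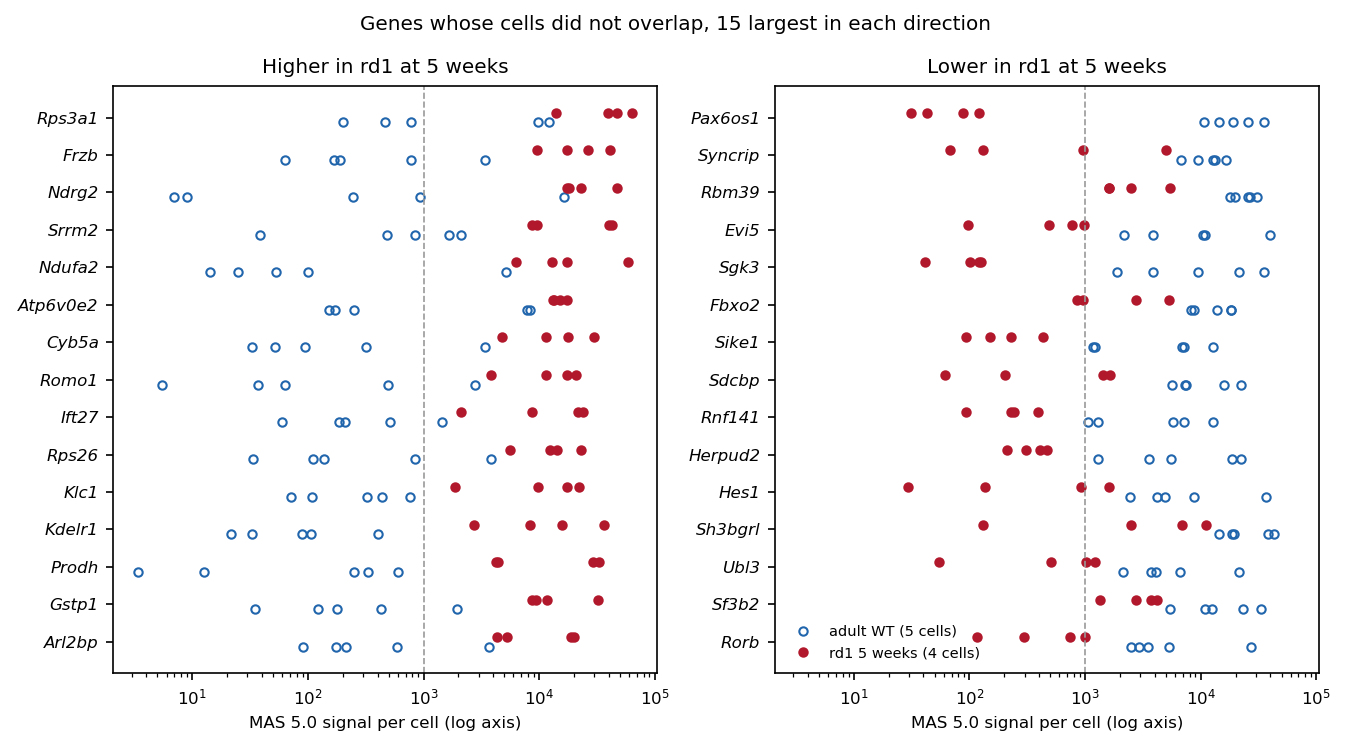
MAS 5.0 signal per cell (log axis) of the 15 genes with the largest higher and the 15 with the largest lower difference among genes whose cells did not overlap, for 4 rd1 cells at 5 weeks (filled) and 5 adult WT cells (open), with the floor of 1000 dashed. Prodh and Kdelr1 had every WT cell under 1000, whereas for Rps3a1 and Ndrg2 a WT cell came close to the lowest rd1 cell.

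Slc6a11, the GABA transporter GAT-3, had the widest gap between the nearest cells of the 2 conditions among the 56 higher genes (2.95 on the log2 scale). It read 8343, 7711, 19024 and 9744 in A1, A5/A6, B1 and A8, and 169, 77.8, 37.4, 60.6 and 365 in MG1, MG16, MG22, MG15 and MG3. All rd1 cells were high and all WT cells far under the floor, a difference of at least 3.17. Prodh, the proline dehydrogenase of mitochondria, read 4431, 4241, 33059 and 29107 in rd1 and 249, 3.40, 12.6, 332 and 600.1 in WT, at least 3.51 higher. B1 and A8 were the higher pair of cells for Prodh.

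Some of the 56 encode secreted or membrane proteins. Frzb, which encodes a secreted Wnt antagonist, read 9524, 17526, 26663 and 41407 in rd1 and 168, 191, 786, 63.3 and 3430.1 in WT (at least 4.43). MG3 was the one WT cell with the gene on. Slc22a17, the gene of a receptor for lipocalin-2, read 7991, 5646, 19481 and 9942 in rd1, and its highest WT value was 1114 in MG15 (at least 3.16). Kdelr1, the receptor that returns proteins to the endoplasmic reticulum, read 2720.3, 8363, 36048 and 15692 in rd1 and 400.4 or less in WT (at least 3.52). Lrp1, a large endocytic receptor for lipoproteins, read 2728, 4777, 5392 and 2519.9 in rd1 and 140.1 to 395 in WT (at least 1.85), so that its rd1 values lay close together.

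Farp1, Klc1, Ift27 and Arl2bp were also among the 56. Farp1, which encodes a FERM-domain protein, read 3310.1, 5703, 14336 and 29919.5 in rd1 and 61.0 to 1237 in WT (at least 3.18). Klc1, a kinesin light chain gene, read 9849, 1863, 17268 and 22040.0 in rd1 and 764 or less in WT (at least 3.71), and Ift27, a subunit gene of the intraflagellar transport complex, read 2094, 8640.3, 23733 and 21809 in rd1 and 60.3 to 1432 in WT (at least 3.78). For Klc1 the cell A5/A6 was itself just under 2000. Arl2bp, a gene of a binding partner of the GTPase Arl2, read 4310.1 to 20124 in rd1 and was on in MG3 alone among the WT cells, at 3703 (at least 3.31).

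For other genes of the 56, MG15 or MG3 came closer to the rd1 cells than MG1, MG16 and MG22 did. Rps3a1, a ribosomal protein gene, read 14046, 39444, 63919 and 47597 in rd1, but 9719 in MG3 and 12260.1 in MG15, and 780.3 or less in the other WT cells (at least 5.44, the largest of the 56). Ndrg2, a gene of astrocytes and other glia, read 17434, 23138, 47061 and 18046 in rd1 and 16557 in MG15, with 928 or less elsewhere in WT (at least 4.35). Atp6v0e2, a proton pump subunit gene, read 13239.6 to 17247 in rd1 and 7919 and 8273 in MG15 and MG3 (at least 3.84). Ndufa2, Cyb5a, Romo1 and Rps26 had MG15 on at 5166, 3436, 2798 and 3861 and the other 4 WT cells under 1000. Cells left out cannot create an overlap, so the lack of overlap in these 56 genes was not put to a test by leaving out MG1, MG16 and MG22. Atp6v0e2 was then under the 2-fold rule, and 55 of the 56 still met it.

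Among the 20 lower genes, Pax6os1, a transcript named for the strand opposite Pax6, had the widest gap. It read 43.2, 31.5, 87.7 and 120.4 in rd1 and 35583, 14252, 10640.2, 18986 and 25553 in WT, a fall of at least 4.25 on the log2 scale. Pax6 itself, the eye field regulator, read 4881, 1783, 24357 and 5147 in rd1 and 639 to 17304 in WT, and the cells overlapped (-0.45).

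Hes1 and Rorb, which regulate transcription, were also among the 20. Hes1, the repressor through which Notch acts in glia, read 1607, 136, 925 and 29.3 in rd1 and 36963, 4956, 4164, 2457 and 8774 in WT. It was on in all 5 WT cells and in no rd1 cell, at least 2.31 lower. Rorb, a nuclear receptor gene, read 734, 996, 296 and 117 in rd1 and 2480.1 to 27042 in WT (at least 1.81 lower). For both genes the medians of all other conditions of the series also lay under the lowest WT cell.

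RNA-binding proteins and splicing factors stood on both sides. Srrm2, a splicing cofactor gene, was among the 56 higher genes at 8646, 9502, 40379.5 and 42970.1 in rd1 and 38.7 to 2095 in WT (at least 4.29). Syncrip, an hnRNP gene, read 954, 67.3, 130.0 and 5031 in rd1 and 6716 to 16485 in WT (at least 3.67 lower), with A8 as the one rd1 cell that had it on. Rbm39, a splicing factor gene, read 2517, 1623, 1612 and 5447 in rd1 and 17782 to 30918 in WT, a difference of -3.66. Sf3b2, a subunit gene of the U2 snRNP, read 3748, 4152, 1353 and 2755 in rd1 and 5444 to 33240.2 in WT (-1.97). Over the list of splicing factors and ribonucleoproteins, 9 of 30 members were lower and 5 higher (34.6% and 19.2% of the 26 above the floor, against 19.1% and 28.5% over all genes). Srsf2 fell in its median by 2.69 with 1 overlapping cell, A1 at 6022 against a WT range of 5231 to 10061. The balance of this list changed with the setting: it was 7 lower and 9 higher without MG1, MG16 and MG22, and with all cells kept 7 and 9 with one probe set per gene, 6 and 7 without probe sets of shared sequence and 7 and 7 under quantile normalization. Translation factors gave 6 lower and 4 higher of 23 (27.3% and 18.2% of 22 above the floor), with Eif5 at -2.46 and Eif5a at -2.68, and 4 lower and 5 higher without the same WT cells.

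Other lower genes have varied roles. Sgk3, a kinase gene of the phosphoinositide pathway, read 125 or less in every rd1 cell and 1891 to 35244 in WT (at least 3.25 lower). Evi5, a gene of a Rab GTPase-activating protein, read 97.9 to 982 in rd1 and 2162 to 39459 in WT (at least 3.38 lower). Fbxo2, a ubiquitin ligase subunit gene, read 5289, 952, 846 and 2738 in rd1 and 8310.3 to 18334 in WT (-3.06), and Sdcbp, the syntenin gene, 61.3 to 1637 and 5589.6 to 22143 (-2.65). Herpud2, Rnf141, Sike1 and Ubl3 read 465, 391, 429.8 and 1222 at most in rd1, and 1291, 1052, 1178 and 2121 at least in WT. Sh3bgrl, a gene of a thioredoxin-like protein, read 130.5 to 11026 in rd1 and 14417 to 43277 in WT (-2.22). Emg1, a ribosome assembly gene, read 22.0, 1951, 94.4 and 33.9 in rd1 and 32338, 20757, 8220.4, 15905 and 894 in WT, where MG3 overlapped. Rps9 was the ribosomal member of the 20 (-1.09), with 26364 in B1 against 26651 in MG16.

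Among the expressed genes of reactive gliosis more were higher than lower in rd1. Of 29 measured members 11 were higher and 1 lower, which is 61.1% and 5.56% of the 18 above the floor against 28.5% and 19.1% over all genes, and 11 and 1 were also counted without MG1, MG16 and MG22. The list median was 0.06 over all 29 members, and against the congenic FVB cells at P13 the count was 10 higher and 4 lower. The study itself singled out Gfap and several other members from these arrays, so the list is not independent evidence of its direction. Gfap read 4301, 12136, 21806 and 3004 in rd1 and 152, 4047, 57.5, 172 and 267 in WT, at least 2.85 higher. It was on in 4 of 4 rd1 cells, and MG16 was the WT cell that overlapped. The 3 Gfap probe sets differed. One read 4301, 11.1, 13836 and 211 in A1, A5/A6, B1 and A8 and 5.30 to 198 in WT, so it was on in A1 and B1 alone. Another read 3816, 12136, 21806 and 3004 in rd1 and 38.9 to 172 in WT. The last read 1499, 3.55, 52.1 and 1709 in rd1 and held the value of MG16, 4047, against 11.4 to 267 in the other WT cells.

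The gp130 cytokine pathway drives Gfap transcription in glia. Of 16 measured genes of its receptors, Stat3 and Socs proteins 3 were higher and 0 lower (42.9% and 0% of 7 above the floor, against 28.5% and 19.1% over all genes), with a list median of 0.00, and 3 and 1 without MG1, MG16 and MG22. The 3 higher members are also in the gliosis list. Cntfr, the receptor gene for ciliary neurotrophic factor, read 2047, 7093, 3709.7 and 3039.9 in rd1 and 17.3 to 856 in WT (at least 1.75). Osmr, the oncostatin M receptor gene, read 1310.3, 20908, 12494 and 6768 in rd1 and was on in MG15 alone among the WT cells, at 10283 (at least 3.20). Stat3, the transcription factor downstream, read 1579.8, 9201, 2587 and 10982 in rd1 and 106 to 2912 in WT (at least 2.29). The adhesion receptor gene Cd44 read 3809.6, 16333, 50388 and 21423 in rd1 and 80.1, 8420.2, 10549, 789 and 2071 in WT (3.18), and Tgfb2 differed by 2.78. S100a10 was the lower member, at 232 or less in rd1 and 262 to 31788 in WT (at least 2.10 lower).

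**Figure D4:**
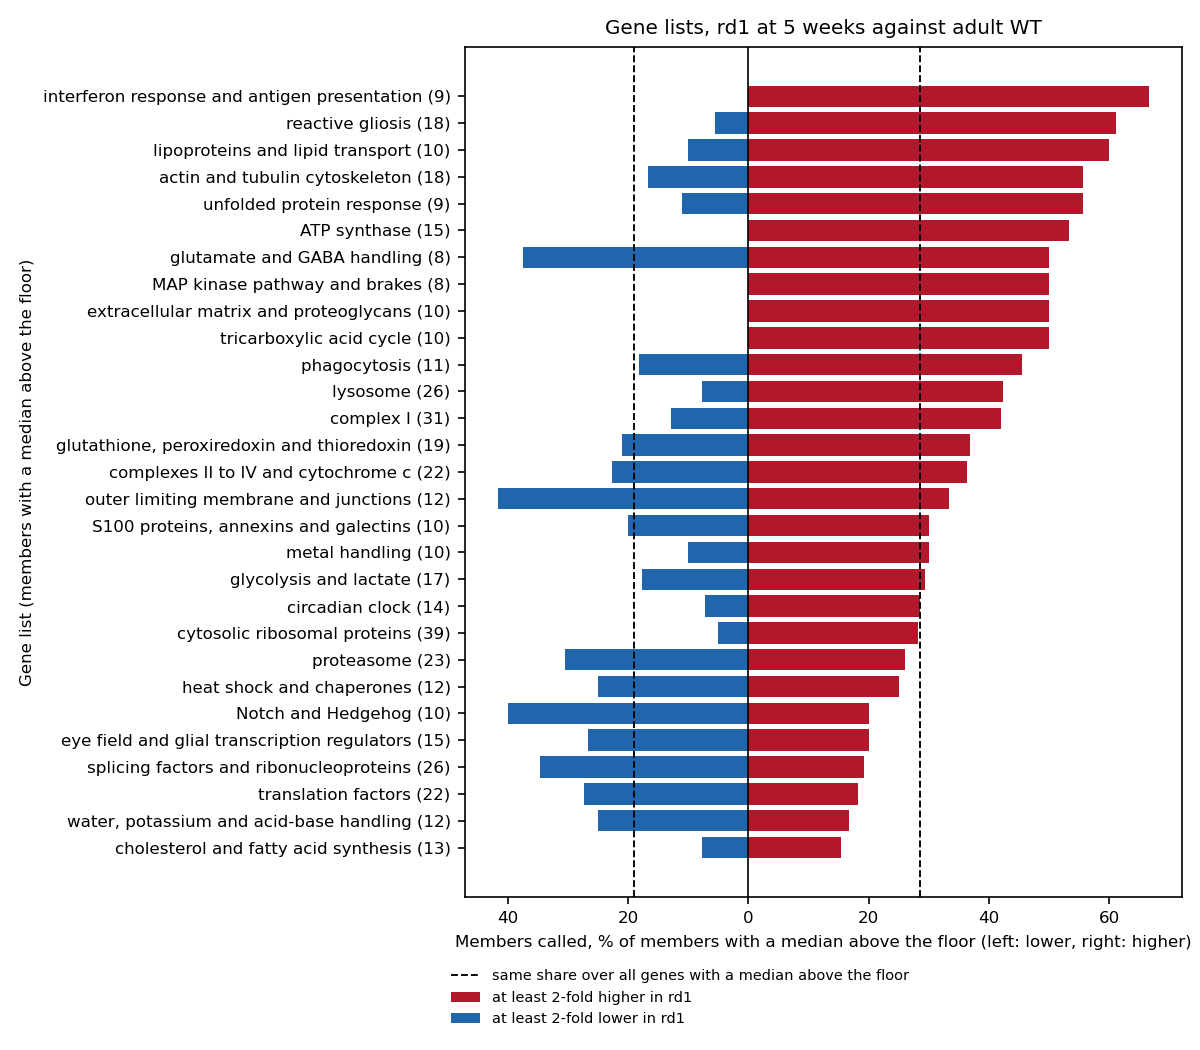
Share of the members of each gene list that were at least 2-fold higher (right) or lower (left) in rd1 at 5 weeks than in adult WT, out of the members with a median above the floor, whose number is in brackets (lists with at least 8 such members). Dashed lines mark the same shares over all 4061 such genes, 28.5% higher and 19.1% lower, and reactive gliosis reached 61.1% higher.

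Metal-binding and antioxidant genes differed in both directions. The metallothionein gene Mt1 read 16572, 26268, 114081 and 26699.6 in rd1 and 79.8, 13.2, 132, 4614 and 50199 in WT (at least 4.73), so that MG3 lay within the rd1 range. Mt2 read 12097, 14252, 28065 and 44949 in rd1 and 17767, 193, 337, 1237 and 4362 in WT (4.01), with MG1 within the rd1 range. Mt3, the brain form, differed by -2.36 in its median and by 0.67 without MG1, MG16 and MG22. Gstp1, a glutathione S-transferase gene, read 9322, 11649, 32567 and 8689 in rd1 and 34.9, 178, 123, 432 and 1961 in WT, without overlap (at least 3.38). Gstp1 has near-identical relatives in the mouse genome, which its probe set may also read. Gpx1, the glutathione peroxidase gene, read 3149, 5529, 19868 and 3927 in rd1 and 1709 or less in WT, without overlap (at least 2.22). S100a6, a calcium-binding protein gene, read 5362, 3984, 26114 and 1019.7 in rd1 and 3.70 to 694 in WT (at least 2.21). Over the list of glutathione, peroxiredoxin and thioredoxin genes 7 of 29 were higher and 4 lower. That is 36.8% and 21.1% of the 19 above the floor, against 28.5% and 19.1% over all genes. The counts were 5 and 6 without MG1, MG16 and MG22.

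The promoter windows of Gstp1 and Mt2 are shown because both hold the letters TGANTCA, the recognition motif of AP-1 factors. The windows are RefSeq sequence of build GRCm38.p6, 250 bases before to 50 bases after the gene start, 5′ to 3′ on the gene's strand, with the motif in capitals, searched on both strands (it is its own reverse complement). Gstp1 lies on the minus strand at chr19:4037863-4038162, with the motif starting 74 bases before the gene start, and Mt2 on the plus strand at chr8:94172368-94172667, with the motif 79 bases before it.
Gstp1: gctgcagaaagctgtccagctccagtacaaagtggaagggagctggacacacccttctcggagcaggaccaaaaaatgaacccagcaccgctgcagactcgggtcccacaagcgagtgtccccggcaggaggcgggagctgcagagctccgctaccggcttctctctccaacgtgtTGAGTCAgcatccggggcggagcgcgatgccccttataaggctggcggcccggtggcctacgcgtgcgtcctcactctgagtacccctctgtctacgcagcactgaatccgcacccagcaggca
Mt2: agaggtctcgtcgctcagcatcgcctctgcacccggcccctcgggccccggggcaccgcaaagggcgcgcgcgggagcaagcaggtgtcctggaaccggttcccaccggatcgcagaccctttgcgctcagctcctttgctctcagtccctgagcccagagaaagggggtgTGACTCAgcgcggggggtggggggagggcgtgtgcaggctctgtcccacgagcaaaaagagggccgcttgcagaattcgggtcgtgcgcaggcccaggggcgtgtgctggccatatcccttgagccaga
The motif was in the window of 2425 of 27025 genes (8.97%), of 4 of 45 higher genes without overlap that have a window (8.89%) and of 1 of 14 lower ones (7.14%), so these genes held it about as often as genes in general. A match is a description of letters and says nothing of binding.

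Transmitter handling was split by gene. Slc1a3, the glutamate transporter gene GLAST, read 3155, 10827, 52572 and 8668 in rd1 and 3948, 42613, 48565, 29670.0 and 28188 in WT, a difference of -1.61 with cells that overlapped. Slc1a2, the glutamate transporter GLT-1, differed by -3.28, with 190.2 to 3739 in rd1 and 256 to 22697 in WT. In contrast, Glud1, the glutamate dehydrogenase gene, read 2271, 15199, 13627 and 15847 in rd1 and was on in MG15 and MG3 only (14526 and 13071), at least 3.85 higher. Slc38a3, a glutamine transporter gene, was at least 3.10 higher and 0.63 lower without MG1, MG16 and MG22. Aqp4, the water channel gene, read 10871, 19371, 49530.1 and 32008 in rd1 and 75747, 22766, 66144, 62361 and 56351 in WT, 1.32 lower with MG16 in the rd1 range.

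Of 15 ATP synthase subunit genes 8 were higher and none lower (53.3% and 0% of 15 above the floor, against 28.5% and 19.1% over all genes), with a list median of 1.27. Atp5a1, the α-subunit gene, read 11948, 22122, 58494 and 17717 in rd1 and 20771, 15528, 8198, 3256 and 5592 in WT, 1.27 higher with overlap. Atp5j, Atp5c1 and Atp5e differed by 3.36, 3.25 and 3.12. Atp5l, another subunit gene, read 10939.7, 30054, 368 and 26231 in rd1 and 1292 or less in WT (at least 4.08), so B1 was its exception. Without MG1, MG16 and MG22 the list counted 9 higher and 2 lower. Complex I had 13 of 34 higher and 4 lower (41.9% and 12.9% of 31 above the floor), of which Ndufa2 alone did not overlap, and 15 and 7 without those WT cells. Complexes II to IV with cytochrome c had 8 of 24 higher and 5 lower (36.4% and 22.7% of 22), and 10 and 3 without them. The tricarboxylic acid cycle had 5 of 17 higher and none lower (50.0% and 0% of 10), and 6 and 1 without them. Glycolysis and lactate handling had 5 of 20 higher and 3 lower (29.4% and 17.6% of 17, near the shares over all genes) and 6 and 2 without them, including the lactate transporter gene Slc16a1 at 1578 to 3095 in rd1 and at most 1569 in WT.

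Lysosomal genes were higher in 11 of 32 and lower in 2. That is 42.3% and 7.69% of 26 above the floor, against 28.5% and 19.1% over all genes, with a list median of 0.29. The counts were 12 and 4 without MG1, MG16 and MG22. Psap, the saposin precursor gene, read 9608, 22234, 3342 and 28243 in rd1 and 116, 7391, 302, 288 and 2154 in WT (at least 3.87). The protease genes Ctsd (at least 3.25) and Ctsb (1.80) were higher too, and Ctsd in A8 was an exception at 808. Among lipid carriers Clu read 32359, 100598, 212112 and 165199.8 in rd1 and 42981 to 146783 in WT (1.11), and Apoe read 6859, 47707, 73372 and 53676 in rd1 and 27794 to 78342 in WT (-0.39). The phagocytosis list had 5 of 20 higher and 2 lower (45.5% and 18.2% of 11 above the floor), and 5 and 5 without MG1, MG16 and MG22. Its receptor gene Mertk was on in 3 of 4 rd1 cells (4144, 2328, 40.8 and 10744) and in no WT cell (at most 117), at least 1.64 higher. The related receptor gene Axl read 48.5, 2845, 4134 and 10361 in rd1 and 17795 in MG22, above every rd1 cell, with 141 or less in the other WT cells (at least 1.78).

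Interferon and antigen presentation genes were higher in 6 of 18 and lower in none. That is 66.7% and 0% of 9 above the floor, against 28.5% and 19.1% over all genes, with a list median of 0.23. The count was 4 higher and 0 lower without MG1, MG16 and MG22, with a floor of 2000 and without probe sets of shared sequence. It was 8 and 0 under quantile normalization. Against the congenic FVB cells at P13, which had few MGC markers on, it was 2 and 2. Ifitm3, an interferon-induced membrane protein gene, read 7553, 12.6, 32380.1 and 52444 in rd1 and 22218, 5655, 3.10, 20.5 and 52.0 in WT (at least 3.97). H2-K1, a class I heavy chain gene, read 4736, 6551, 10238 and 41723 in rd1 and 96.9, 50.5, 3109, 18386 and 555 in WT (at least 3.03). B2m, the light chain gene, read 2412, 2411, 36472 and 12251 in rd1 and 83.9 to 15172 in WT (at least 2.44), and Psmb8 of the immunoproteasome 1991, 6455, 26436 and 119.9 in rd1 and 216 or less in WT (at least 1.84). Class I genes of the 2 strains differ in sequence, which probe sets may read unequally, and this was not tested. Chemokine and cytokine genes gave 2 higher and 3 lower of 17 (2 and 3 of the 5 above the floor), and 0 and 2 without MG1, MG16 and MG22, with Ccl3 at 956 or less in rd1 and at 8462, 15945 and 6060.0 in MG1, MG16 and MG22 (at least 2.60 lower).

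The Notch and Hedgehog list had 4 lower and 2 higher of 22 (4 and 2 of the 10 above the floor, against 19.1% and 28.5% over all genes), and 4 and 2 without MG1, MG16 and MG22. Ptch1, the Hedgehog receptor gene, read 4112, 8497, 8777 and 269.8 in rd1 and 29221, 6031, 36509.6, 32706 and 39087 in WT (-2.47), and Smo, its partner, 3418, 724, 21554 and 381 in rd1 and 2788 to 18064 in WT (-2.59). Hey2, another Notch target, went the other way at 6109, 16105, 11324 and 12702 in rd1, yet MG15 and MG3 had 6592 and 6113 (at least 3.58). Spc25, a kinetochore gene, read 191, 87.1, 332 and 108 in rd1 and 117017, 262, 70579, 80907 and 194888 in WT. It was under 1000 in all rd1 cells and in MG16, and the difference of medians was -6.34, with the rd1 median at the floor. Immediate early genes rise when cells are stressed during dissociation. Of 22 measured, 5 had a median above the floor, with 0 higher and 1 lower (1 and 4 without MG1, MG16 and MG22). None of 18 integrin genes differed 2-fold (1 without those cells). With all cells kept, only 2 of the 18 had a median above the floor, and the others could not meet the rule. The list therefore says little about integrins.

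The 4 rd1 cells differed widely among themselves. Of all genes, 502 were on in all 4, 722 in 3, 1367 in 2 and 2829 in 1. A gene on in one rd1 cell and under 1000 in the other 3 was found 947 times in A1, 482 times in A5/A6, 281 times in B1 and 372 times in A8. The strongest such genes of A1 were Pcp2 (19393), Ttr (14341), Igfbp4 (12634), Lpgat1 (12553) and Rph3a (12348), of which Pcp2 and Rph3a are neuronal. In A5/A6 they were Blmh, Slc25a1, Hdgf, G6pc3 and Cuta (22822 to 26236), and in A8 Nsmce4a, Sh3d19, Hikeshi, Mcm7 and Guf1 (31782 to 46374). In B1 they were Gtf3c6, Idnk, Rarres2, Isg20 and Flot2 (51501 to 71050.2), and Isg20, an interferon-induced exonuclease gene, was on in 1 of the 18 cells of the other conditions.

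The other conditions place these genes beside other strains and ages, but not every one of them holds comparable cells. The 3 congenic FVB cells at P13 had 3 to 7 of 19 MGC markers on and 8 or 9 of 12 vascular markers, and rd1 P13 cells A1 and B1 had 8 and 6 MGC markers and 9 and 7 vascular ones, whereas the 10 Rhod-ko cells had 13 to 18 and 1 to 3. No gene was on in all 4 rd1 cells at 5 weeks and under 1000 in every other cell of the series. Of the 20 lower genes, 11 had all 4 other medians under the lowest WT cell, among them Hes1, Rorb, Sgk3 and Pax6os1. In 15 of the 20 the congenic FVB median was under it. Of the 56 higher genes, 17 had all 4 other medians above the highest WT cell. For such genes the adult WT cells stood apart, and the level was not particular to rd1 at 5 weeks.

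Single genes followed different courses across the conditions. Slc6a11 had medians of 8225 and 2258 in Rhod-ko at 8 and 25 weeks, 2351 in rd1 at P13 and 15.5 in congenic FVB. Prodh had medians of 1100.5 and 142 in Rhod-ko at 8 and 25 weeks, 2704 in rd1 at P13 and 22.8 in congenic FVB. It reached 20374 in a Rhod-ko cell at 8 weeks. Gfap had medians of 66692 in Rhod-ko at 8 weeks, 78.4 in Rhod-ko at 25 weeks, 11717 in rd1 at P13 and 77.8 in congenic FVB. Farp1 had its highest median in rd1 at 5 weeks: its medians were 72.8 to 360.5 in the other 4 conditions, and 2 Rhod-ko cells at 25 weeks reached up to 4241. Pax6os1 had its highest median in adult WT, with medians of 41.0 to 393 elsewhere and 1 cell on in each Rhod-ko group. Spc25 was on in all 10 Rhod-ko cells (17560.5 to 61486) and at most 489 in the rd1 and congenic cells at P13, so that every cell from an FVB animal was low and MG16 was the one low cell from a C57/BL6 animal.

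**Figure D5:**
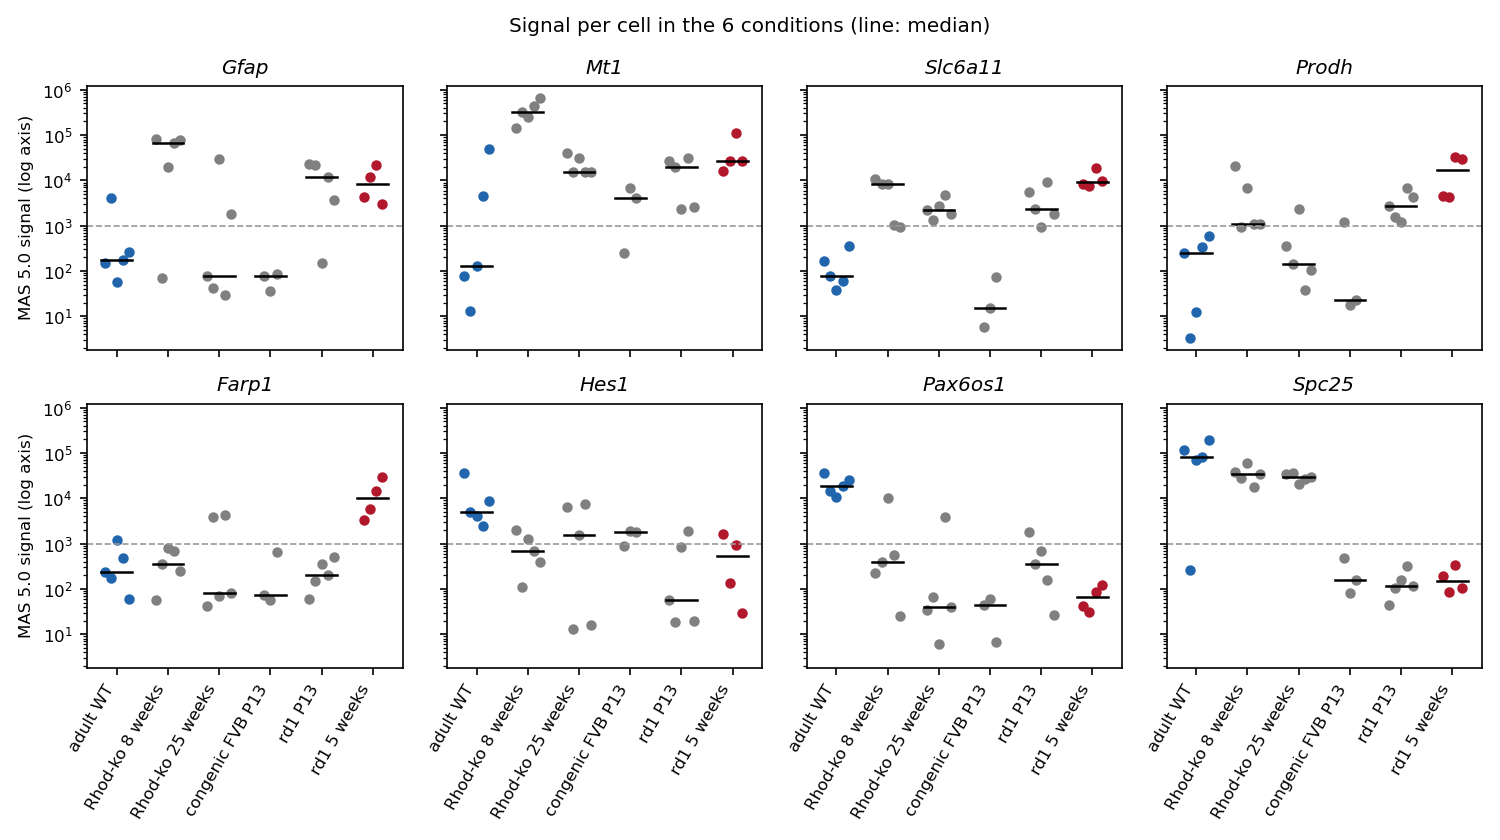
Signal per cell (log axis) of 8 genes in the 6 conditions, with a line at the median and the floor of 1000 dashed. Slc6a11 and Prodh were high in rd1 at 5 weeks and low in adult WT, and both were also on in some Rhod-ko and rd1 P13 cells. Spc25 was high in cells from C57/BL6 animals other than 1 adult WT cell and low in all cells from FVB animals.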

How the data were processed

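Single MGCs were lysed, and their RNA was reverse transcribed, amplified by PCR and hybridised to Affymetrix Mouse Genome 430 2.0 arrays. The deposited values are linear signal intensities that the authors computed with MAS 5.0 and scaled to one trimmed mean, and no RNA-seq depth applies, so the number of cells limits the precision. Of 45101 probe sets, 34958 carried 1 gene symbol (34754 matched to RefSeq), 932 several and 9211 none, which gave 18194 genes. In each cell a gene took its highest probe set with a single symbol, as in the authors' procedure. Medians were compared on the log2 scale after a floor of 1000, with a 2-fold rule of size and a signal of 2000 for on. Correlations across genes used log2 values floored at 100. Because the labels do not tie cells to animals, no test was run. The comparison was run on simulated data, where all 200 changed genes were recovered with the right direction. The simulated cells differed far less than the real ones, so this checks the computation and not the calls made here.

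Named genes were those without overlap and with the largest differences, the members of function lists and the markers. The members and the lists were chosen with earlier results of these data known. Alternatives covered the floor, the normalization, the choice of probe set, group means, each cell left out and the congenic FVB cells as control. Some genes are not analysed here. Python 3.11.15, numpy 2.4.6, pandas 2.3.3, scipy 1.17.1 and matplotlib 3.10.9 were used.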

Additional observations from a re-analysis of the deposited data

Results flagged for a closer look

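For each gene named here, the gap of a cell to the nearest other cell of its condition was divided by the range of that condition, on floored log2 signals. The cell was set apart where this ratio exceeded Dixon's critical value. The number of genes on per cell was examined likewise in each condition. A cell was set apart in 38 of these 264 comparisons (13 in rd1 and 25 in WT), each time for a named gene. The usual rate of about 1 in 20 by chance does not apply here. Where all other cells lie at the floor, a single cell above it always stands apart, as 1237 for Farp1 did. The genes were also picked from these data, so the count is a description only. In WT cell MG3 the signal that stood apart was 3430.1 for Frzb, 1961 for Gstp1 and 3703 for Arl2bp. In WT cell MG15 the signal that stood apart was 16557 for Ndrg2, 5166 for Ndufa2, 3436 for Cyb5a, 2798 for Romo1, 3861 for Rps26, 1114 for Slc22a17, 10283 for Osmr, 29139 for Lhx2, 1292 for Atp5l, 3345 for Sag and 33489 for Rpl11. In WT cell MG1 the signal that stood apart was 1432 for Ift27 and 3948 for Slc1a3. In WT cell MG22 the signal that stood apart was 1237 for Farp1, 1709 for Gpx1 and 17795 for Axl. In WT cell MG16 the signal that stood apart was 1569 for Slc16a1, 4047 for Gfap, 262 for Spc25, 2912 for Stat3, 22766 for Aqp4 and 6031 for Ptch1. In rd1 cell A8 the signal that stood apart was 5031 for Syncrip and 34277 for Mcm7. In rd1 cell A1 the signal that stood apart was 1607 for Hes1, 1222 for Ubl3, 13856 for Gpr37, 2271 for Glud1, 19393 for Pcp2, 1868 for Ccnd1 and 1542 for Opn1sw. In rd1 cell A5/A6 the signal that stood apart was 1951 for Emg1 and 26236 for Blmh. In rd1 cell B1 the signal that stood apart was 52166 for Isg20 and 53178 for Rarres2. Pcp2, Blmh, Isg20, Rarres2 and Mcm7 were named because they were on in a single rd1 cell, so they had to stand apart.

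Among probe sets without a gene symbol, which enter no comparison of the report, 4 were higher in rd1 without overlap. One read 22015, 56131, 105313 and 90693 in rd1 and 9.70 to 15250.3 in WT, a difference of 4.18, and another read 5472 to 14028 in rd1 and 539 to 4806 in WT, a difference of 1.56.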

How the results depend on the processing

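No test was run, so the counts of genes are compared here. The 1156 higher genes became 1752 with a floor of 500 and 647 with one of 2000, and the 774 lower genes became 1600 without WT MG1, MG16 and MG22, an alternative chosen after seeing the data, and 1606 against the congenic FVB cells. Leaving out 1 cell gave 1036 to 1405 higher and 745 to 1127 lower genes. Under quantile normalization the 56 higher genes without overlap became 61, of which 39 were among the 56. At a common 90th percentile they became 40, of which 33 were among the 56. In both settings 55 of the 56 still met the 2-fold rule. The count became 34 with a floor of 2000, 170 without MG1, MG16 and MG22 and 180 against congenic FVB, of which 19 were among the 56. Leaving out 1 cell gave 65 to 124, past 1.5 times for A1 (107), A5/A6 (101), B1 (124), A8 (102) and MG16 (90). The 20 lower ones became 37 at a common 90th percentile, 12 with a floor of 2000, 308 without MG1, MG16 and MG22 and 486 against congenic FVB, of which 2 were among the 20. Leaving out 1 cell gave 23 to 54, past 1.5 times for A1 (31), B1 (32), MG1 (41), MG16 (50), MG22 (37), MG15 (54) and MG3 (49), with 23 without A5/A6 and 24 without A8. Fewer cells make non-overlap easier. A change of sign was counted only where the reported difference was at least 1 in size. On this rule, of 2483 values for 131 named genes, 30 changed sign. Of the rest, 2179 moved by less than the spread between cells and 274 by more. Smaller differences, such as -0.39 for Apoe, are not in the count of 30 or in the sign changes listed next, even where they changed sign. Against congenic FVB, whose cells had few MGC markers on, the differences that changed sign were -0.28 for Rps26, -0.70 for Gstp1, -1.92 for Gpx1, -3.06 for Slc16a1, 0.73 for Fbxo2, 0.67 for Mt3, 4.59 for Aqp4, 3.28 for Slc1a3, -0.12 for Actg1, 0.90 for Slc1a2, 1.59 for Ptch1, -1.0 for Ifitm3, -1.55 for B2m, 0.97 for Eif5, -0.51 for Cat, -0.08 for Kdr, 0.78 for Eno2, -0.27 for Ndufa6 and -0.12 for Selenok. Without MG1, MG16 and MG22 they were 0.67 for Mt3, -0.67 for Rlbp1, -0.51 for Crym, -0.95 for Car14, -0.24 for Tuba1a, -0.23 for Actg1, -0.91 for Il33, -0.63 for Slc38a3, -0.02 for Cox4i1, -1.85 for Kdr and 0.78 for Eno2. The cause was not tested. No list median changed sign on this rule in 760 values, but only the ATP synthase list had a reported median (1.27) large enough to be counted. For the other lists that outcome was fixed in advance. No paired analysis was possible because the cells carry no shared numbers and no test was run.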

Other observations

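Other genes showed large differences that rest on MG1, MG16 and MG22. Pmel, a melanosome gene of the pigment epithelium, read 31711, 34266 and 46869 in these WT cells and at most 462 in the other 6 cells. Gsto1, a glutathione transferase gene, read 69737, 6533 and 52902 in them and at most 139 elsewhere. The polarity gene Pard3 read 18117, 7323 and 13310.2 in them and at most 494 elsewhere. By contrast, Ccnd1, a cyclin of the G1 phase, was under 2000 in all rd1 cells (19.5 to 1868) and on in 4 of 5 WT cells (1368 in MG22, 7006 to 32989 in the others).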
